A study of Mus musculus with 4 samples.

Results

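The subject of this report is a set of 802 noncoding transcript probes that the scanner software called well above background on both arrays of LSK cells and on neither array of CD45 Neg cells, out of 20679 noncoding probes on the design and 61307 noncontrol probes in all. The members were chosen by the detection flags of the 4 arrays, so their presence in LSK cells and their absence from CD45 Neg cells is a description and was not tested. LSK cells are marrow cells that lack lineage markers and carry Sca-1 and c-kit, and among them are the blood stem cells and early progenitors. CD45 Neg cells were sorted as stromal cells and are called niche cells in the labels. All cells came from bone marrow of C57BL6/J mice with a labelled age of 7 weeks. The day 0 groups were healthy control mice. The day 10 groups were CD45.1 recipients exposed to 700 cGy of radiation that had each received 30000 LSK cells of CD45.2 donors, taken 10 days later. The stromal sort is given in one place as CD45.1-negative and in another as CD45-negative. Each group has 1 array, whether animals were pooled is not given in the sources used here, and no difference below has a standard error between mice or a test.

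Long noncoding RNAs are transcribed and often spliced and polyadenylated like messenger RNAs but have no long reading frame. Many were first seen as full-length cDNA clones, and many start next to the promoter of a coding gene, on its other strand, or lie within a cluster of developmental regulators. They are usually less abundant and more restricted to 1 cell type than messenger RNAs. The probes here came from the NONCODE collection of such transcripts, and each is named by a transcript unit, a number preceded by u. All 802 members carry the class name mRNAlike in the files, as do 20662 of all 20679 noncoding probes.

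The probes below carry the results that follow. Each is 60 bases long and is written 5′ to 3′ as in the deposited spot files. The first pair are the brightest members, and the capitals mark the 38 bases they share:

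u203535: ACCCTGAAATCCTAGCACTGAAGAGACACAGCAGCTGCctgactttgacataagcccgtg
u203536: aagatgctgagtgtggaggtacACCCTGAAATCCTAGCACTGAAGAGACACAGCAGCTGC

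With so much sequence in common, the pair cannot be counted as separate transcripts. The next 7 are the members of the longest run of neighbouring units, on chromosome 11:

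u195109: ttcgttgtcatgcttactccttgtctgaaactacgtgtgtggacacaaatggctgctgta
u195110: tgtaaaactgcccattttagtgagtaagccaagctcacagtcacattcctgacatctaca
u195112: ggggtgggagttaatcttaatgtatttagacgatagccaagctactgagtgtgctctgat
u195113: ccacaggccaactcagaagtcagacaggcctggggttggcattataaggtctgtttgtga
u195114: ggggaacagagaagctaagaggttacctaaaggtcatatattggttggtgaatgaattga
u195115: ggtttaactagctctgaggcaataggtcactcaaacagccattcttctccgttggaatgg
u195119: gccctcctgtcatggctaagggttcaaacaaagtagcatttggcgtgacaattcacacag

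The following were the third brightest member and the members with the largest lower and the largest higher day 10 levels that also passed 2-fold under other background correction:

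u196128: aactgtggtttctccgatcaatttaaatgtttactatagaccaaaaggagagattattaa
u179690: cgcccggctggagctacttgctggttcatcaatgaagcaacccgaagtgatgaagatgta
u202301: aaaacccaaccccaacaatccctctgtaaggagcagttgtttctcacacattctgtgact
u195888: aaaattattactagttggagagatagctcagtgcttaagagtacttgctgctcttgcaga

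The share of noncoding probes detected in LSK cells only was 3.88%, against 2.26% of the gene probes (920 of 40628). The opposite pattern, detection on both CD45 Neg arrays and on neither LSK array, was found for 115 noncoding probes (0.556%) and 194 gene probes (0.478%). The arrays were not equally sensitive. The lowest level called well above background, where a level is the log2 signal minus the 75th percentile of its array, was -3.95 for LSK day 0, -4.12 for LSK day 10, -3.15 for CD45 Neg day 0 and -4.24 for CD45 Neg day 10. The limit was thus highest on the CD45 Neg day 0 array, and a level between -3.95 and -3.15 could be called on the other 3 arrays and not on that one. The defining LSK genes Kit, the receptor of stem cell factor, and Ly6a, which encodes Sca-1, were detected on all 4 arrays. Kit had day 0 and day 10 levels of 5.04 and 4.65 in LSK cells, against 1.52 and 1.94 in CD45 Neg cells. Ly6a had 2.98 and 2.86 in LSK cells and 0.20 and 3.44 in CD45 Neg cells, so at day 10 it was higher in CD45 Neg cells. Ptprc, which encodes CD45, had levels of 3.10 and 5.58 in CD45 Neg cells at day 0 and day 10, against 4.18 and 4.25 in LSK cells, so the CD45 Neg label is not matched by its defining gene. In CD45 Neg cells the summed log2 level of 8 erythroid genes was 10.76 at day 0 and 6.60 at day 10. For 8 stromal genes it was 7.11 and 3.77, and for 5 neutrophil genes 7.49 and 8.97. It was 4.05 and 7.90 for 6 B and plasma cell genes, and 0.26 and 5.70 for 6 T and NK genes. The markers of this sort were thus not those of stroma alone, and they differed between the days.

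Most members were dim. Their level had a median of -3.15 on the LSK day 0 array and -3.29 on the LSK day 10 array, and the quartiles of the mean over both were -3.47 and -2.90. The mean LSK level was below -3 for 548 members (68.3%), above -2 for 39, above -1 for 8 and above 0 for 3. Noncoding probes detected on every array had a median of -0.62. On the CD45 Neg arrays the members had medians of -3.92 at day 0 and -4.62 at day 10, values that were not well above background.

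**Figure D1:**
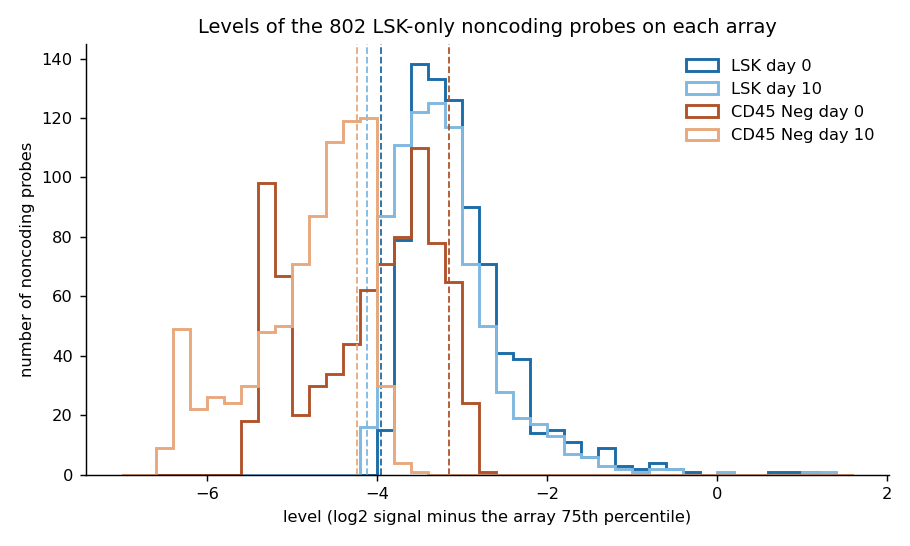
Levels of the 802 members on each array, as the number of probes per bin of log2 signal relative to the array 75th percentile, with a dashed line at the lowest level called well above background on that array. The LSK medians of -3.15 and -3.29 lie close to the CD45 Neg day 0 limit of -3.15.

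The members at the edge of the rule show how narrow it is. Among those just inside, u192289 had levels of -3.83 and -4.01 on the LSK arrays, and u183867 had -3.72 and -4.02. Just outside lay 375 noncoding probes that were also detected on the CD45 Neg day 0 array alone and 1037 that were also detected on the CD45 Neg day 10 array alone. The dimmest of these, u183081, had a level of -3.12 on the CD45 Neg day 0 array, and u188798 had -4.15 on the CD45 Neg day 10 array.

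Because the members were not called well above background in CD45 Neg cells, the ratio of LSK to CD45 Neg cells is a lower bound, taken against the higher of the lowest called level and the probe's own level on the CD45 Neg array. For 224 members at least 1 CD45 Neg level was not below the lowest level called there. At day 0 such a bound above 1 could be given for 397 members and for the other 405 no fold could be given. At day 10 it could be given for 800. The bound reached 2-fold for 64 members at day 0, for 345 at day 10 and for 55 at both days. Those 55 are 6.86% of the members and 0.266% of all noncoding probes. Of the gene probes with the same detection pattern, 16.6% (153 of 920) reached 2-fold at both days.

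The brightest member, u203535, had levels of 1.07 and 1.35 on the LSK arrays and -3.53 and -4.68 on the CD45 Neg arrays at day 0 and day 10. It was at least 18.6-fold higher in LSK cells at day 0 and at least 48.0-fold higher at day 10. Its overlapping probe, u203536, had LSK levels of 0.74 and 1.0, with bounds of 14.5-fold and 37.8-fold. Both probes were higher at day 10, by 0.28 and 0.26 log2 units, less than the 1 unit counted here as a difference. Another 3 members lay within the same interval of chromosome 17: u203542 at -1.13 and -0.71, u203544 at -2.47 and -2.56, and u203530 at -3.39 and -3.04 in LSK cells. The unit between them, u203531, was bright on all 4 arrays (5.24, 4.76, 5.74 and 4.12), so the pattern was not shared by the whole stretch.

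The third brightest, u196128, had LSK levels of 0.83 and 0.17 and was at least 15.8-fold higher than CD45 Neg cells at day 0 and 21.2-fold at day 10. The neighbouring unit u196126 had LSK levels of -0.98 and -1.52. Both lie in an interval of chromosome 11 that holds 53 coding genes. Units u189629 and u189631, from an interval of chromosome 7 between Fam174b and Gm30459, had LSK levels of -0.44 and -0.93, and of -0.76 and -1.34. The unit u179304, on chromosome 1, stood at -0.65 and -0.78. The unit u199112, whose chromosome could not be placed, stood at -0.55 and -0.40.

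**Figure D2:**
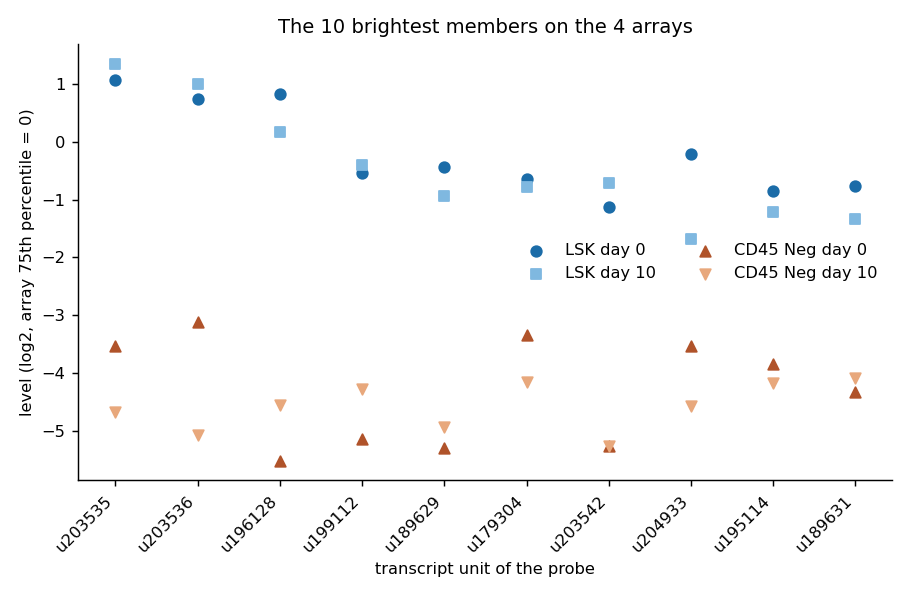
Levels (log2 signal, array 75th percentile at 0) of the 10 brightest members on the 4 arrays, 1 point for each array. Both LSK points lie above both CD45 Neg points for all 10, which the detection rule favours, and u203535 is the highest at 1.07 and 1.35.

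The rule required detection on the LSK arrays of both days, so probes detected at 1 day alone were left out (409 at day 0 and 727 at day 10), which limits the size of the day differences. The lowest called level also differed between the LSK arrays, by -0.17 at day 10 relative to day 0. The day differences therefore rest on values the rule used and are a description. Over the 802 members the LSK day 10 level minus the LSK day 0 level had a median of -0.18 (quartiles -0.50 and 0.15), and 525 of 802 (65.5%) were lower at day 10. Noncoding probes detected on both LSK arrays had a median of -0.08, with 56.8% lower, and gene probes detected on both had 0.02, with 48.1% lower. Gene probes detected in LSK cells only had a median of -0.17, with 62.4% lower and 9.15% at least 2-fold lower, values near those of the members for the median and the share that was lower. Noncoding probes that were not members but lay within the same middle range of levels had a median of -0.08 over 814 probes, against -0.16 over the 400 members in that range. At least 2-fold higher at day 10 were 12 members (1.5%), beside 1.92% of all noncoding probes detected on both LSK arrays. At least 2-fold lower were 37 members (4.61%), beside 4.2%. Both shares were close to that background. Each array measures RNA of a bulk sort, so fewer cells of a type and less RNA per cell cannot be told apart.

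The error of a single dim spot was large. Replicate spots of gene probes in the range of the members had a pooled SD of 0.50 log2 units on the LSK day 0 array (8 probes) and 0.38 on the LSK day 10 array (6 probes), against 0.08 on each for probes above 0. A difference between 2 single dim spots then has an SD of 0.63. A difference beyond 2 such SD, 1.26 log2 units, was found for 23 members, of which 20 were lower at day 10. Whether spot error alone would give as many was not tested, and no share over other probes is set beside this count. The count of 23 is therefore not evidence of differences beyond spot error. The SD covers the error within an array and not the spread between mice.

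With normexp background correction, which adds an offset that draws dim values together, only 1 member was at least 2-fold higher and 2 were at least 2-fold lower. The member u179690, on chromosome 1, was at -1.52 at day 0 and -4.07 at day 10, a difference of -2.55 log2 units (-1.07 under normexp). The member u202301 was at -1.31 and -3.25, a difference of -1.94 (-1.0 under normexp). Another probe of that unit matches the RefSeq start region of Mir99ahg, the host transcript of microRNAs of the miR-99, let-7 and miR-125 families, and the gene probe of Mir99ahg was at -2.62 on the LSK day 0 array and not well above background at day 10 (-4.63). The member that was higher was the u195888 probe with levels of -2.67 and -0.50, a difference of 2.17 (1.14 under normexp). That probe lists cDNAs of 4 units far apart in the numbering so its level is not that of 1 unit. The other member probe of u195888 differed by 0.40.

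**Figure D3:**
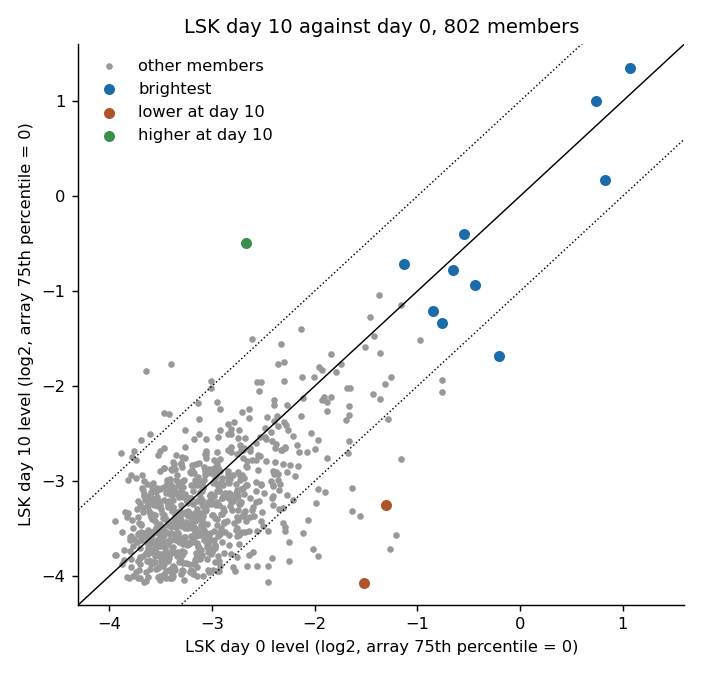
LSK day 10 level against LSK day 0 level (log2, array 75th percentile at 0) for the 802 members, with the line of equal level and dotted lines at 2-fold. The 2 members marked as lower, u179690 and u202301, lie furthest below the line among those that also passed 2-fold under normexp, and u195888 lies above it.

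The bright members that differed least between the days were u200000 (-1.16 and -1.14), u190392 (-1.42 and -1.48), u201652 (-1.74 and -1.77), u186194 (-1.79 and -1.86) and u199015 (-2.11 and -2.12). Of the brightest, u204933 differed most, with -0.21 at day 0 and -1.68 at day 10, a difference of -1.47 that was -0.87 under normexp.

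Marker genes of other blood cells also differed between the LSK arrays. The summed level of 6 B and plasma cell genes was 7.67 at day 0 and 4.31 at day 10 on the log2 scale, with 6 and 5 detected. That of 5 basophil and mast cell genes was 7.90 and 6.02, with 4 and 5 detected. Its brightest genes were the basophil proteases Prss34 (7.47 and 5.58) and Mcpt8 (5.87 and 3.90), while the mast cell protease gene Cma1 went the other way, from not well above background at -3.81 to -0.23. The summed level of 5 neutrophil genes was 5.04 and 7.11, all detected at both days, and that of 5 monocyte and macrophage genes was 5.51 and 6.48, with 4 and 5 detected. Their part in the day differences of the members was not tested.

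The unit numbers follow the genome, which allows members to be placed between named genes although the files give no position for these probes. Noncoding probes with a match to a RefSeq start region, or that share a cDNA accession with a gene probe, gave 1311 anchors on the GRCm38.p6 assembly, and 1276 of them (97.3%) rise in 1 order with the unit number. When each anchor was left out in turn, 98.3% fell on the chromosome of their flanking anchors and 89.6% between them. By this order 752 members lie between anchors of a single chromosome and 50 were not placed. The placed members are spread over the chromosomes, from 2.51% of the placed noncoding probes of chromosome 5 to 5.25% of those of chromosome 11. Chromosome 18 was not analysed here, and units numbered between the blocks of chromosomes 17 and 19 are among those not placed. These intervals are wide, with a median of 22 coding genes, and they show a neighbourhood and not an overlap. A gene with the LSK-only detection pattern lay in the interval of 448 placed members (59.6%), beside 53.1% of all placed noncoding probes.

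The longest run of members lay on chromosome 11 between Etaa1 and Gm12059, and was chosen after its values were seen. From u195109 to u195119, 7 of 11 noncoding probes were members. The interval holds 22 coding genes, of which Meis1, a homeobox factor that maintains blood stem cells, was the gene with a probe of the same detection pattern. The day 0 and day 10 LSK levels were -0.76 and -1.93 for u195109, and -1.93 and -1.82 for u195110. They were -2.35 and -3.09 for u195112 and -0.76 and -2.06 for u195113. The next members, u195114 and u195115, had -0.85 and -1.21, and -1.28 and -2.34. The last, u195119, had -2.42 and -3.81. All but u195110 were lower at day 10, and the median difference was -1.06, against -0.18 over all members. With normexp background correction no member of the run was 2-fold lower. The difference was then -0.76 for u195109, -0.88 for u195113 and -0.51 for u195115. It was -0.36 for u195112, -0.29 for u195114 and 0.04 for u195110. The units u195116 and u195117 in the same stretch were detected in CD45 Neg cells and are not members; u195116 had LSK levels of -1.40 and -2.55. Of the Meis1 gene probes, one had LSK levels of 0.47 and -0.64 and was also detected in CD45 Neg cells at day 10 (-3.15), and the other had -1.12 and -1.42 and was detected in LSK cells only.

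**Figure D4:**
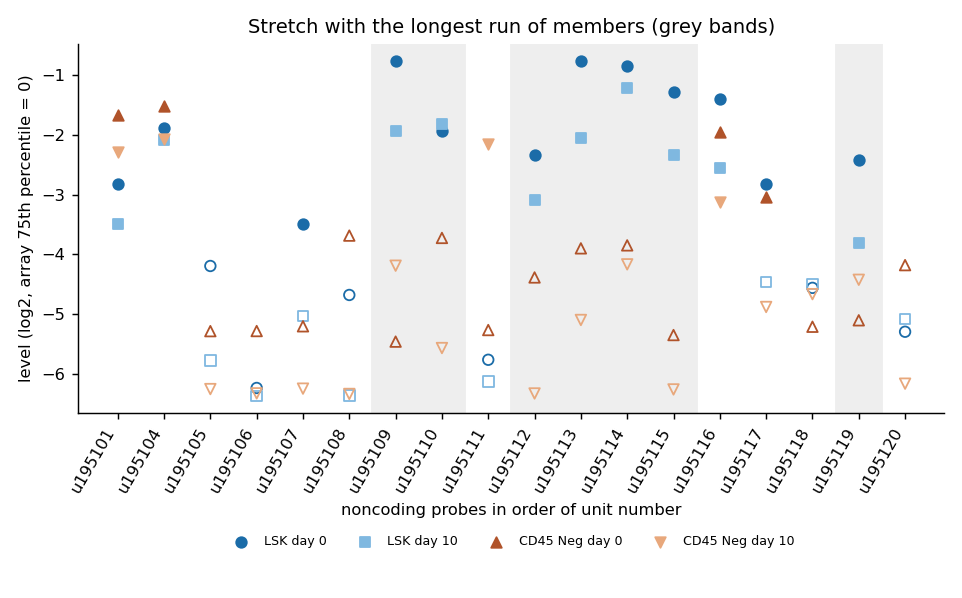
Levels (log2 signal, array 75th percentile at 0) of the noncoding probes around the chromosome 11 run, in order of unit number, with 1 marker for each array; filled markers are well above background, open ones are not, and grey bands mark members. Of the 7 members 6 have a lower LSK level at day 10 than at day 0, while u195111 is detected on the CD45 Neg day 10 array alone.

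Other runs of at least 4 member units were few. On chromosome 4, 4 of 5 probes from u185410 to u185416 were members, between Errfi1 and Gm42363. On chromosome 17, 4 of 11 probes from u202787 to u202800 were members, in an interval that also holds Prss28 and Tpsb2, the latter a mast cell tryptase, both with the same detection pattern. Over all units, 4.30% held a member, and of the units next to a unit with a member 6.0% did (91 of 1517).

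Another pair of neighbourhoods holds genes known from blood stem cells. Between Cbx3 and Evx1 on chromosome 6, which flank the Hoxa cluster of homeobox genes, u187787 had LSK levels of -1.46 and -1.27 and was at least 3.24-fold and 7.80-fold higher than CD45 Neg cells. A probe of u187784 had -2.30 and -3.29. Hoxa10 had the same detection pattern at lower levels (-3.19 and -3.13), whereas Hoxa9 was detected on all 4 arrays at 2.49 and 2.39 in LSK cells and -2.56 and -2.25 in CD45 Neg cells. The other probes of u187784 were not well above background on any array. The units u187782 and u187788, numbered close by, were detected on all 4 arrays. The LSK-only pattern was thus not shared by the whole Hoxa stretch. Between Rpl22l1 and Gm33590 on chromosome 3 lies an interval of 10 coding genes that holds Mecom, a zinc finger factor of stem cells. There u182307 had LSK levels of -1.26 at day 0 and -3.71 at day 10, a difference of -2.45 that was -0.96 under normexp. The unit u182311 had -2.29 and -2.65, and u182302 had -3.15 and -3.50. Only members are named for this interval, and its other noncoding probes are not described here. Of 3 Mecom gene probes, one had -3.43 and -3.42 and another -3.50 and -3.55 in LSK cells, and neither was well above background in CD45 Neg cells. The third, at -5.21 and -4.10 in LSK cells, was not well above background on any array.

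Some members could be placed exactly. The whole probe of 38 members (4.74%) matched a window from 250 bases before to 50 bases after a RefSeq gene start, beside 2.67% of all noncoding probes and 2.49% of those detected on every array. Of the 38, 29 (76.3%) read the strand opposite to the gene, beside 77.2% of all noncoding probes in such windows. All 58 gene probes that lay in their own gene's window read the strand of the gene. The probes of 3 members from u180631 overlap almost entirely and were counted 3 times.

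The following 3 probes read the strand opposite to a gene's start. Their positions are known, as for all 38, and they are examples chosen after their values were seen. Positions are of GRCm38.p6 and each matched gene lies on the minus strand, except Paqr8:

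u182656: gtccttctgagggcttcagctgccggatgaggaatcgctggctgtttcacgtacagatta
u203136: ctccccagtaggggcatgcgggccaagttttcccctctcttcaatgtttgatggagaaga
u177952: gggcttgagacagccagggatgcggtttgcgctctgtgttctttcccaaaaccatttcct

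The first lies at chr3:67464090-67464149, before the start of Lxn, an inhibitor of carboxypeptidases that limits blood stem cell number. It had LSK levels of -3.37 and -2.81, and Lxn itself was detected on all 4 arrays (3.22, 3.73, 2.45 and 4.53). The second lies at chr17:51833345-51833404, before Satb1, a chromatin organiser of lymphoid cells, with LSK levels of -3.36 and -3.12. Satb1 was likewise detected on all arrays, at 3.28 and 3.08 in LSK cells and 1.25 and 3.11 in CD45 Neg cells. The third lies at chr1:20890301-20890360, before Paqr8, a membrane progestin receptor, with LSK levels of -2.18 and -2.62. Paqr8 had the same pattern as its neighbouring probe, at -2.24 and -2.78 in LSK cells and not well above background in CD45 Neg cells. In these examples the gene and the probe on its other strand thus shared the LSK-only pattern for Paqr8 and not for Lxn or Satb1. Paqr8 was the exception among the 38 matches. By the brightest probe of each gene, no other matched gene with a gene probe had the LSK-only pattern, and most were detected on all arrays.

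The members were also described by sequence. Their median GC content was 50%, against 46.7% for all noncoding probes, 48.3% for those detected on every array and 43.3% for those detected on none. Probes whose listed cDNAs belong to units more than 100 numbers apart made up 4.86% of the members (39), 10.9% of all noncoding probes and 26.1% of those detected on every array. The members fall into 776 units, and 22 units held more than 1 member probe. The most, 5 of 18 probes, were from u203419 on chromosome 17, with LSK levels from -3.36 to -2.30 at day 0 and from -3.53 to -1.94 at day 10. In the 126 units that held a member and at least 2 noncoding probes, 443 probes were not members, of which 150 were detected on every array and 188 on none. Over all noncoding probes 32.6% were detected on every array and 44.5% on none, shares close to these. Probes of 1 unit thus often disagreed in detection.

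Well known noncoding genes were listed beside the members. Of 49 listed genes 30 had a gene probe, and of these 18 were detected on every array and 1, Jpx, an activator of Xist, in LSK cells only, at -3.21 and -2.74. Over all gene probes 48.7% were detected on every array and 2.26% in LSK cells only. The 1 of 30 thus shows no contrast with that share. Malat1, a nuclear speckle RNA, was at 6.07 and 6.23 in LSK cells and 7.31 and 6.05 in CD45 Neg cells. Neat1, the scaffold of paraspeckles, was at 4.68 and 4.29, and Gas5, a host of small nucleolar RNAs, at 1.55 and 1.45 in LSK cells. Of the 22 listed genes detected on both LSK arrays, 3 were at least 2-fold higher at day 10 and 0 were at least 2-fold lower, beside 1.62% and 2.31% of the gene probes. The 3 were Rmrp (1.11 and 2.66), Rpph1 (-1.10 and 0.13) and Terc (-2.22 and -1.12), RNA components of RNase MRP, RNase P and telomerase. Xist, the RNA of X inactivation, was well above background at day 10 alone, at -1.96 in LSK cells and 3.81 in CD45 Neg cells, and Meg3, an imprinted RNA, on the LSK day 0 array alone (-3.08). These levels are of 1 probe per gene. The LSK day differences ran from -0.23 to 3.83 over 4 Xist probes and from -3.14 to 0.69 over 5 Meg3 probes. Whether the sex of the mice differed between the days was not tested.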

How the data were processed

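Gene expression was measured on 4 Agilent 1-colour arrays, 1 for each of 4 groups. Per the labels' protocols, cRNA with Cy3 was made from 500 ng of total RNA by oligo-dT priming. Scans were read by the authors in Agilent Feature Extraction (version 10.5.1.1 in the file headers), and the deposited spot signals are intensity values, processed signals being background-subtracted. The flags deposited beside them (unit: other) are calls and not signals. The deposited series table holds log2 values. They equal the log2 processed signal minus 1 constant for about 99.98% of probes on each array, within 0.001. The design build is mm9 per the file headers.

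Here control and outlier spots were removed, spots of the same probe were averaged as log2 processed signal, and each array's 75th percentile was subtracted (Python 3.11.15, pandas 2.3.3). Normexp used limma 3.58.1 in R 4.3.3 with an offset of 50. A difference of 2-fold is a size and not a test. The number of arrays limits the precision. Sequences are from the spot files, and gene positions are from RefSeq tables of GRCm38.p6; anchors needed 30 matching bases, and 33395 of 40628 gene probes (82.2%) had 1 RefSeq gene. The code was tested on simulated data.

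Named probes are the 10 brightest members, up to 10 with the largest difference each way that are also 2-fold under normexp and quantile normalization, the 5 least different of the 50 brightest, 5 at each edge of the rule, and the units with most members. Probes named for a neighbourhood or a promoter were chosen after their values were seen. The members and the lists were chosen with earlier results of these data known. Alternatives were other scalings, background correction, detection flags, outlier spots kept, stricter levels and 1 value per unit.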

Additional observations from a re-analysis of the deposited data

Results flagged for a closer look

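In 3 listed noncoding genes detected on all 4 arrays, the day 10 level minus the day 0 level was at least 2-fold in opposite directions in LSK and CD45 Neg cells. In CD45 Neg cells the difference was -4.21 for Rmrp, -2.21 for Rpph1 and -1.21 for Terc, and in LSK cells it was 1.54, 1.23 and 1.11. The pattern was not limited to these genes. The small nucleolar RNA probe u4946 went from 1.53 at day 0 to 2.86 at day 10 in LSK cells and from 2.32 to 0.70 in CD45 Neg cells. The cRNA was made by oligo-dT priming, and how well that captures such RNAs was not tested. The difference between the populations was not tested, as each group has 1 array.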

How the results depend on the processing

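The count of 802 members was 716 with the other detection flag, 578 when both CD45 Neg levels had to lie below the lowest called level, 776 as distinct units, and 802 with outlier spots kept or, as an alternative chosen after seeing the data, with probes that have such a spot left out. It was 178 when both LSK levels had to lie 1 log2 unit above the lowest called level. Under normexp, 1 member was at least 2-fold higher at day 10 and 2 were lower, and with the stricter LSK level 2 were higher and 9 lower, against 12 and 37. The median day difference stayed between -0.19 and -0.11 under every alternative run. The members with a bound of at least 2-fold at both days numbered 3 under normexp and 306 with the probe's own level as floor, against 55. The median bound at day 0 was -0.35 log2 units under normexp and 0.92 with the probe's own level, against -0.01. At day 10 it was 0.49 under normexp, 0.40 under quantile normalization, 0.48 with a median shift and 1.41 with the probe's own level, against 0.90. Of 161 recomputed differences of 23 named probes, 158 moved by less than the SD of a difference of dim spots, and 3 moved by more. None of the differences of at least 2-fold changed sign; 11 recomputed differences of 6 probes did, all with a main difference of at most 0.0645. The normexp offset itself draws dim values together; other causes were not tested. No paired analysis was possible because each group has 1 array, and for the same reason no replicate could be left out. Most members lie near background, which limits every fold.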
